A study of Mus musculus with 6 samples.

Results

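The genes described here are 9 regulators of the step from G1 into S phase that have been reported as targets of the microRNA family miR-34: Ccnd1, Cdk4, Cdk6, Ccne2, E2f3, E2f5, Cdc25a, Myc and Mycn. They were taken by symbol from the 46078 Ensembl genes of each count table, and each was found once. Gene counts came from RNA sequencing of small intestinal adenomas of 18-week-old mice of a mixed C57BL6/SV129 strain. All mice carried ApcMin/+, a heterozygous truncating mutation of Apc, which restrains Wnt signalling, and such mice grow many intestinal polyps. The knockout group (miR-34a/b/c-/-;ApcMin/+) had all 3 family members deleted, and the wild-type group (miR-34a/b/c+/+;ApcMin/+) kept them. Each group had 3 mice, and for each library the RNA of 3 tumors from 1 mouse was pooled. The spread between libraries thus holds that between mice together with the choice of tumors and library preparation. These parts, and the tumors within a mouse, cannot be told apart.

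Entry into S phase is set by cyclin-dependent kinases. D-type cyclins such as cyclin D1 activate CDK4 and CDK6, which phosphorylate the retinoblastoma protein and release E2F transcription factors. E2Fs then raise cyclin E and the enzymes of DNA replication, the phosphatase CDC25A removes inhibitory phosphates from the kinases, and MYC proteins drive the growth that goes with division. miR-34 is induced by p53, and like other microRNAs it pairs through its seed (bases 2 to 8) with sites in the 3′ UTR of mRNAs and lowers their level or translation. In intestinal tumors that have lost Apc function, Myc is a well-known target of the Wnt pathway.

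The mature microRNAs are shown because their shared seed defines the sites looked for in the 9 genes. The sequences are from RefSeq (GRCm38.p6), written 5′ to 3′ with the seed in capitals. The mature miR-34c-5p was not matched.
mmu-miR-34a-5p (chr4:150068473-150068494, plus strand): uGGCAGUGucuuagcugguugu
mmu-miR-34b-5p (chr9:51103610-51103632, minus strand): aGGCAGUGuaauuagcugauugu

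Both carry the seed GGCAGUG, and its matches on the sense strand of the longest 3′ UTR annotated in GENCODE M21 were sorted into classes that do not overlap. An 8mer is CACTGCCA, a 7mer-m8 is CACTGCC without the A, a 7mer-A1 is ACTGCCA without the first C, and a 6mer is ACTGCC alone. Of the 9 genes, 7 held a match of 7 or 8 bases and 5 of these held an 8mer. Among the 14693 tested genes with an annotated 3′ UTR, 22.8% held a match of 7 or 8 bases and 5.77% an 8mer. The 9 genes were listed because they had been reported as targets, so the presence of matches is not a finding, and a match in these letters is not proof of a site in use. The strongest match of each of the 7 genes is shown on the mRNA strand (mm10), 24 bases ending at the match, which is in capitals.
Ccne2 8mer (chr4:11203178-11203201, plus strand): cttgtctaaggagttaCACTGCCA
Cdk6 8mer (chr5:3522977-3523000, plus strand): acagctctgctgccgaCACTGCCA
E2f3 8mer (chr13:29907164-29907187, minus strand): gcaattcatttgtaaaCACTGCCA
E2f5 8mer (chr3:14606074-14606097, plus strand): ccttcaaacagacattCACTGCCA
Mycn 8mer (chr12:12936978-12937001, minus strand): ttcccacacggacagtCACTGCCA
Ccnd1 7mer-A1 (chr7:144930745-144930768, minus strand): ttgttttacaatgtcagACTGCCA
Cdc25a 7mer-A1 (chr9:109892694-109892717, plus strand): cttcattaagtcaaaatACTGCCA

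The 3′ UTRs differed in length and in how the matches were placed. Cdk6 had the longest, 10217 bases, with 1 8mer and 3 7mer-m8 matches, and 75.0% of the 92 tested genes with a 3′ UTR of 0.8 to 1.25 times that length also held a match of 7 or 8 bases. E2f5 had an 8mer at base 373 of a 3′ UTR of only 592 bases, a length at which 2.81% of 1709 genes held an 8mer. The 8mers of Mycn and Ccne2 began at bases 21 and 96 after the stop codon. E2f3 held an 8mer at base 2732 and a 7mer-m8 at base 708 of 3328 bases. Myc, with a 3′ UTR of 466 bases, held a 6mer only, and Cdk4, with 899 bases, held none of the 4 classes. No match of 7 or 8 bases lay in the coding sequence or the 5′ UTR of these transcripts.

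**Figure D1:**
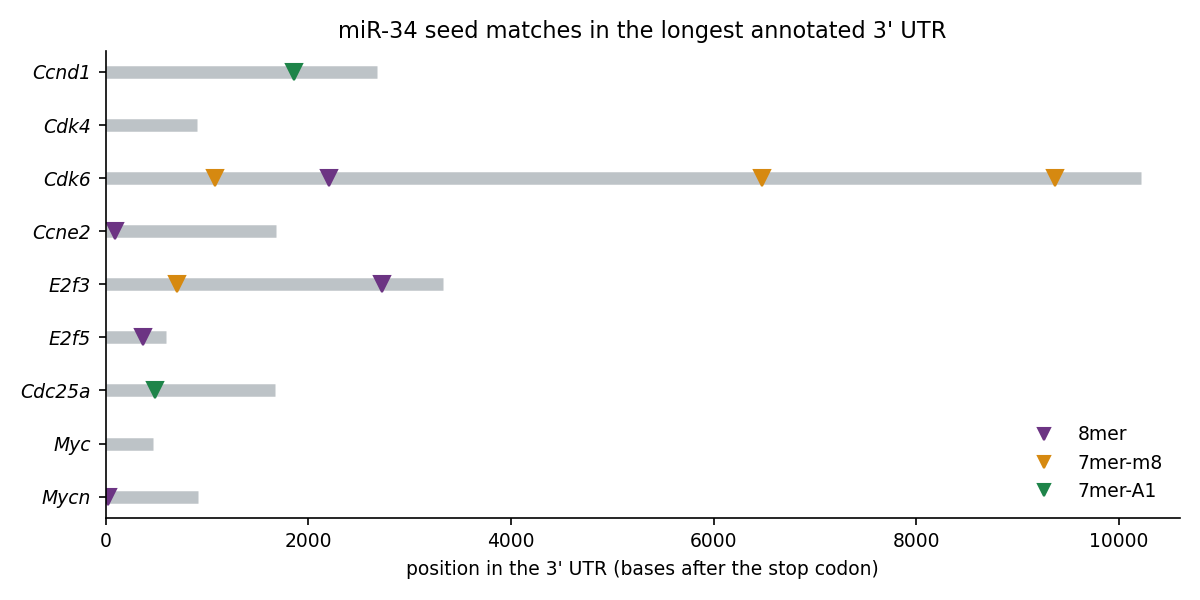
Matches to the miR-34 seed along the longest annotated 3′ UTR of each of the 9 genes (grey bars, bases after the stop codon; triangles mark 8mer, 7mer-m8 and 7mer-A1 matches). Cdk6 has 4 matches in 10217 bases, E2f3 has 2, and Cdk4 and Myc have none of these classes.

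The libraries held 26375035 to 38354355 counts, and each of the 9 genes was well covered, with between 225 (Mycn, knockout replicate 2) and 7475 (Cdk4, knockout replicate 3) counts in a library. All 9 passed the filter on low counts. Levels are given as CPM, the usual counts-per-million measure on library sizes scaled by TMM, and for comparing genes as CPM per kb of exon. The epithelial marker list summed to between 12134 and 17837 CPM in every library, with all 10 genes detected, as the label of the tissue says. The rows of Mir34a, Mir34b and Mir34c were at 0 in all 6 libraries, so they do not check the genotype labels.

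Per kb of exon, Cdk4 was the most abundant of the 9 genes, with a mean of 56.5 ± 11.7 CPM per kb (SD over the 6 libraries), 18.3 times the level of Cdk6, the lowest at 3.09 ± 0.520. Myc followed with 28.6 ± 5.62 and Ccnd1 with 26.5 ± 4.13 CPM per kb. Next came E2f5 (11.5 ± 1.30), Cdc25a (11.4 ± 1.31) and E2f3 (7.03 ± 0.871 CPM per kb). Mycn (3.71 ± 1.08), Ccne2 (3.31 ± 0.447) and Cdk6 closed the order. Cdk4 lay above Myc, Ccnd1 above E2f5, Cdc25a above E2f3, and E2f3 above Mycn in 6 of 6 libraries. The neighbours Myc and Ccnd1, E2f5 and Cdc25a, and Mycn and Ccne2 kept their order in 4 of 6 libraries, and Ccne2 and Cdk6 in 5 of 6, with ranges that overlapped, so their order is within the spread. The whole order also depends on the length used, that of all annotated exons of a gene together. In CPM without length, Cdk6 (means of 46.2 in knockout and 40.2 in wild-type) lay above Mycn (12.6 and 11.9) and Ccne2 (12.5 and 10.7).

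None of the 9 genes rose or fell in knockout tumors at an adjusted p of 0.05 (edgeR, quasi-likelihood), a threshold that 0.0927% of the 17254 genes tested passed, 0.0406% higher and 0.0522% lower in knockout. DESeq2, which called 0.638% of 17232 genes, and limma-voom also called 0 of the 9. At an unadjusted p of 0.05, 1 of the 9 passed with each of the 3 tools, Ccnd1, where 5.85% of all genes tested did with edgeR. Those that passed with a higher level in knockout were 3.27% of all genes tested. The log2 fold changes of the 9 genes ran from -0.23 to 0.32 with a median of 0.09, against a median of 0.0073 over all genes tested, and 6 of 9 were above 0, where 51.1% of all genes were. All 9 had a 95% interval inside a 2-fold change in either direction, and 4 of them inside a 1.5-fold change.

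**Figure D2:**
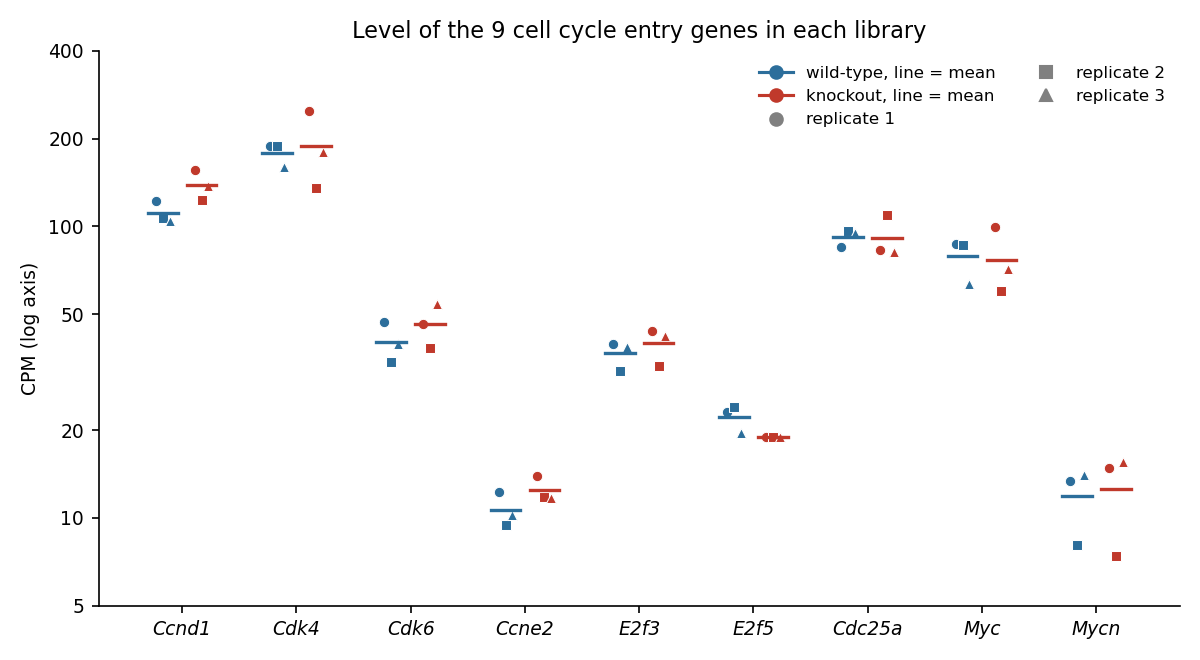
Level of each gene in each library (CPM, log axis; circles, squares and triangles are replicates 1, 2 and 3, lines are group means). Ccnd1 lies higher in each knockout library and E2f5 lower, and the other 7 genes overlap between the groups.

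Among the D-type cyclin and its kinases, Ccnd1, which encodes cyclin D1 (chromosome 7, 144929931 to 144939869), had 156, 123 and 138 CPM in knockout replicates 1 to 3 and 122, 107 and 104 CPM in wild-type replicates 1 to 3. Each knockout library lay above each wild-type library, with knockout replicate 2 (123.0) close to wild-type replicate 1 (122.3). Groups were separated in this direction for 5.86% of all genes tested. The fold change was 1.25, a log2 value of 0.32 ± 0.13 (SE, 95% interval 0.0039 to 0.64, unadjusted p = 0.0479, adjusted p = 0.793, edgeR). Ccnd1 overlaps LTO1 on the opposite strand (4488 counts in all against 24927 for Ccnd1), whose log2 fold change was -0.05. Since no source used here says whether the counting kept the strand, reads of such partners may be shared.

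Cdk4, the more abundant catalytic partner of cyclin D1 (chromosome 10, 127063534 to 127067920), had 249, 136 and 179 CPM in knockout and 189, 188 and 159.7 CPM in wild-type libraries. The 3 knockout libraries held both the highest and the lowest value, and enclosed the wild-type range. The log2 fold change was 0.07 ± 0.23 (95% interval -0.46 to 0.60, adjusted p = 0.951, edgeR). With knockout replicate 1 left out it was -0.19, and with wild-type replicate 3 left out -0.0022. Cdk4 shares exon sequence with Tspan31 on the opposite strand (12423 counts against 36422 for Cdk4), whose log2 fold change was -0.02.

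Cdk6, the second kinase partner (chromosome 5, 3341485 to 3531008) and the gene with the most seed matches, had 46.1, 38.2 and 54.2 CPM in knockout and 47.0, 34.1 and 39.4 CPM in wild-type libraries. The groups overlapped, with knockout replicate 3 highest and wild-type replicate 2 lowest. Its log2 fold change was 0.20 ± 0.17 (95% interval -0.21 to 0.61, adjusted p = 0.822, edgeR).

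Ccne2, which encodes cyclin E2, the partner of CDK2 at the start of S phase (chromosome 4, 11191351 to 11204779), had 13.9, 11.8 and 11.7 CPM in knockout and 12.2, 9.47 and 10.2 CPM in wild-type libraries. The groups overlapped through wild-type replicate 1, which lay above knockout replicates 2 and 3. The difference was 0.23 ± 0.18 on the log2 scale (95% interval -0.19 to 0.65, adjusted p = 0.814, edgeR). Its exons overlap those of Ints8, an Integrator subunit gene on the other strand. Ints8 gathered more counts in all (7918 against 2300), and its log2 fold change was 0.39 ± 0.13 (adjusted p = 0.793, edgeR). The part of these shared bases in the Ccne2 value was not tested.

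Cdc25a, the phosphatase that activates cyclin-dependent kinases (chromosome 9, 109875579 to 109893895), had 82.9, 109 and 81.8 CPM in knockout and 85.2, 96.7 and 94.7 CPM in wild-type libraries. Knockout replicate 2 was the highest of the 6 and the other two knockout libraries the lowest. The log2 fold change was -0.01 ± 0.15 (95% interval -0.36 to 0.33, adjusted p = 0.985, edgeR), and 0.042 with scaling by library size alone. It lay between -0.16 and 0.051 when single libraries were left out and was above 0 for 4 of these 6, knockout replicates 1 and 3 and wild-type replicates 2 and 3.

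Of the 2 E2F genes, E2f3, an activator of S phase genes (chromosome 13, 29906575 to 29985668), had 43.7, 33.3 and 42.1 CPM in knockout and 39.5, 31.8 and 38.6 CPM in wild-type libraries. The groups overlapped, since knockout replicate 2 lay below wild-type replicates 1 and 3. On the log2 scale the difference was 0.11 ± 0.15 (95% interval -0.24 to 0.47, adjusted p = 0.870, edgeR).

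E2f5, an E2F that binds pocket proteins and represses its targets (chromosome 3, 14578641 to 14606309), had 18.93, 18.92 and 18.96 CPM in knockout and 23.1, 23.9 and 19.6 CPM in wild-type libraries. Each knockout library lay below each wild-type library, a separation that 5.34% of all genes tested showed in this direction and 11.2% in either. The knockout libraries differed by 0.107% (coefficient of variation), although counting error alone is between 3.56% and 4.32% of the E2f5 count in a library. The spread among these 3 libraries therefore understates the error of their mean. The fitted log2 fold change was -0.23 ± 0.13 (95% interval -0.54 to 0.08, unadjusted p = 0.123, adjusted p = 0.802, edgeR). The interval reaches a 1.06-fold higher level in knockout. Its exons overlap those of 1810022K09Rik on the opposite strand (3709 counts against 4105 for E2f5), whose log2 fold change was -0.17.

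Myc, the growth-promoting transcription factor (chromosome 15, 61985341 to 61990374), had 99.1, 59.9 and 71.5 CPM in knockout and 86.9, 86.0 and 63.6 CPM in wild-type libraries. As with Cdk4, knockout replicate 1 was the highest and knockout replicate 2 the lowest of the 6. The log2 fold change was -0.04 ± 0.22 (95% interval -0.55 to 0.47, adjusted p = 0.975, edgeR), and 0.045 with scaling by library size alone. It was -0.27 without knockout replicate 1, 0.11 without replicate 2 and 0.0017 without replicate 3 of that group, and 0.03 when wild-type replicate 1 or 2 was dropped.

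Mycn, which encodes the related protein N-MYC (chromosome 12, 12936096 to 12941914), had 14.9, 7.43 and 15.5 CPM in knockout and 13.4, 8.09 and 14.1 CPM in wild-type libraries. One library of each group, replicate 2 in both, was low. The log2 fold change was 0.09 ± 0.34, with the widest interval of the 9 genes (-0.71 to 0.89, adjusted p = 0.962, edgeR). It was 0.36 without knockout replicate 2, -0.06 and -0.10 when replicate 1 or 3 of that group was dropped, and -0.13 without wild-type replicate 2.

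**Figure D3:**
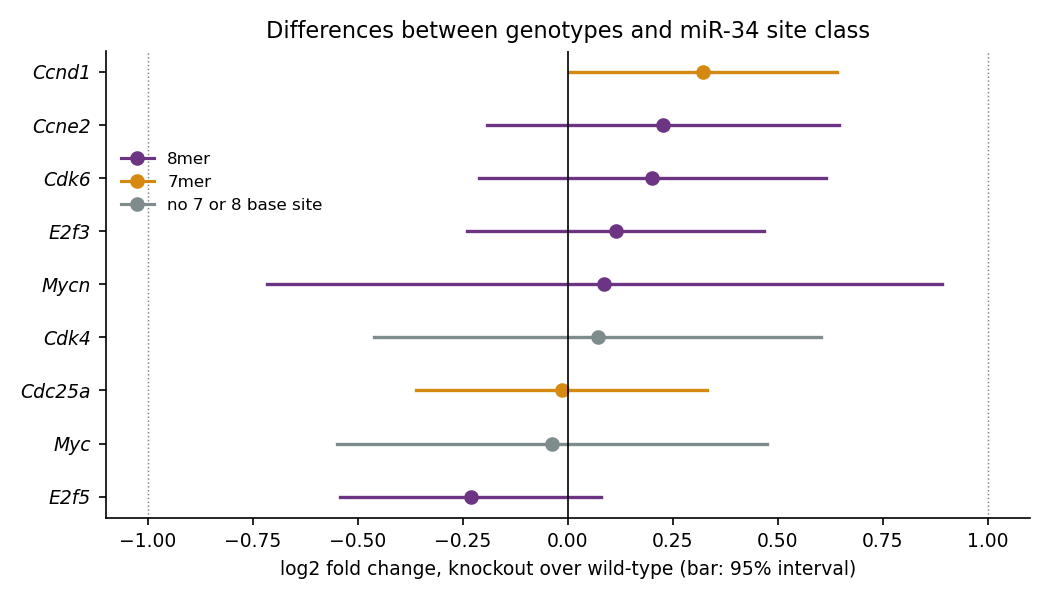
Log2 fold change of each gene, knockout over wild-type (points, with 95% intervals as bars; dotted lines mark a 2-fold change), coloured by the strongest miR-34 seed match in the 3′ UTR. The intervals of 8 genes include 0 and that of Ccnd1 starts at 0.0039, and the 5 genes with an 8mer lie between -0.23 and 0.23.

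Set beside the seed matches, the 5 genes with an 8mer had log2 fold changes of 0.23 (Ccne2), 0.20 (Cdk6), 0.11 (E2f3), 0.09 (Mycn) and -0.23 (E2f5), of which 4 were above 0. The 2 genes with a 7mer-A1 had 0.32 (Ccnd1) and -0.01 (Cdc25a). The 2 genes without a match of 7 or 8 bases had 0.07 (Cdk4) and -0.04 (Myc). Over all tested genes with an annotated 3′ UTR, the median log2 fold change was 0.06 for the 848 genes with an 8mer. It was also 0.06 for the 3352 genes with any match of 7 or 8 bases, and 0.0047 for the 9744 genes with none of the 4 classes. The 8mer set, which is part of the wider set, was no higher than it. For the 784 genes with 2 or more matches of 7 or 8 bases, Cdk6 and E2f3 among them, the median was 0.0877. Of these 784 genes 66.6% had a value above 0. The 3′ UTRs of the 8mer set were longer than those without a match (median 2428 against 797 bases). Those of the genes with 2 or more matches were longer still (median 3174 bases). The part of UTR length in these differences was not tested. Of the 848 genes 60.5% had a value above 0, and of the 3352 genes 60.0%, against 50.8% of the genes with no match.

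The make-up of each family was compared as the share of each gene in the summed CPM per kb of the family. The length used is that of all annotated exons of a gene together, and the size of a share depends on it. It was 8775 bases for Ccnd3 against 4709 for Ccnd1, and 13989 for Cdk6 against 3249 for Cdk4. Which transcripts were in use was not tested. Among D-type cyclins, Ccnd1 took 47.0% ± 3.93 in knockout and 45.8% ± 3.43 in wild-type tumors (SD, n = 3 each), and Ccnd2 took 44.2% ± 5.16 and 44.7% ± 4.21. Cdk4 made up 94.4% ± 1.30 of Cdk4 and Cdk6 together in knockout and 95.03% ± 0.803 in wild-type tumors. Ccne2 held 33.5% ± 2.76 of the E-type cyclins in knockout and 36.3% ± 3.32 in wild-type tumors, with Ccne1 as the larger share. These shares overlapped between the groups.

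The shares of 4 genes did not overlap. E2f5 held 23.2%, 25.3% and 25.8% of the repressor E2Fs (with E2f4 and E2f6) in knockout and 30.1%, 28.1% and 27.3% in wild-type tumors, and E2f6 went the other way, with means of 9.26% and 7.80%. Myc held 64.0%, 62.8% and 61.4% of the Myc family in knockout and 64.7%, 75.0% and 66.7% in wild-type tumors. Mycl, which encodes L-MYC and has no match of 7 or 8 bases, held 28.1%, 30.7% and 27.6% in knockout and 27.0%, 19.2% and 21.1% in wild-type tumors. For each of these 4 shares the exact two-sided permutation test gave p = 0.1, the smallest that 3 against 3 allows, and the value adjusted over the 19 shares of 7 families was 0.475. Shares within a family are not independent of each other. The level of Mycl was 52.0 ± 11.2 against 38.8 ± 13.2 CPM, a log2 difference of 0.42 ± 0.26 (adjusted p = 0.805, edgeR).

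**Figure D4:**
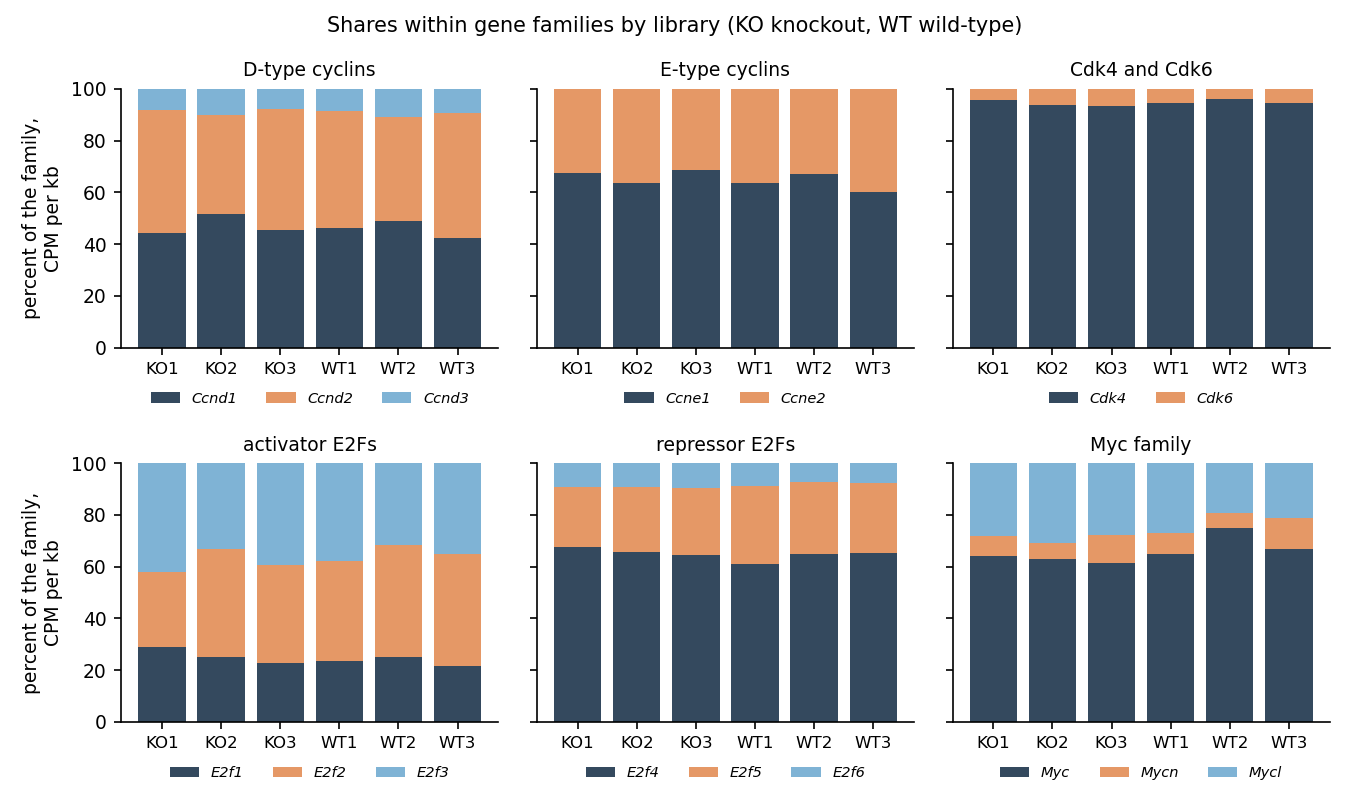
Share of each gene in the summed CPM per kb of its family, one bar per library (percent; KO knockout, WT wild-type). Cdk4 makes up at least 93.4% of Cdk4 and Cdk6 in each library, Ccnd1 takes between 42.2% and 51.5% of the D-type cyclins, and E2f5 takes a smaller share of E2f4, E2f5 and E2f6 in the 3 knockout libraries.

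The rest of the G1 to S network was read from 7 lists with 92 genes, all of which were tested. No gene of them passed at an adjusted p of 0.05 with edgeR, DESeq2 or limma-voom. At an unadjusted p of 0.05 there were 2 with edgeR (2.17%), E2f7 and Cdc45, 2 with DESeq2 and 1 with limma-voom. The edgeR share lies below the 5.85% of all genes tested. The counts of genes above 0 in these lists stand beside 51.1% of all genes tested. Groups did not overlap for 11.2% of all genes tested, 5.86% higher and 5.34% lower in knockout. Higher without overlap were 3 of 13 paralogs, 2 of 20 S phase genes, 1 of 14 growth genes and 1 of 11 partners. Another 2 of the 11 partners were lower without overlap, and the remaining lists had 0 such genes. Genes of a list can move together, so they are not independent signs.

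Among the 13 paralogs of the 9 genes, 10 were above 0 with a median log2 fold change of 0.17, and 1 of the 13 (E2f2) held a seed match of 7 or 8 bases. E2f7, an E2F that represses the genes of S phase, had a mean of 11.7 ± 0.597 CPM in knockout tumors against 8.48 ± 0.495 CPM, with no overlap between groups, and in this order (knockout first, SD over 3 libraries) the other genes are given. Its log2 difference was 0.46 ± 0.16 (SE, adjusted p = 0.793, edgeR). Ccne1, the other cyclin E gene, had 19.05 ± 3.23 against 14.3 ± 2.27 CPM (0.41 ± 0.19, adjusted p = 0.793, edgeR). E2f6, a repressor that does not bind pocket proteins, had 22.5 ± 0.837 against 19.3 ± 2.27 CPM, also without overlap. Its lowest knockout library (replicate 2, 21.66 CPM) was close to its highest wild-type library (replicate 1, 21.56 CPM). The other D-type cyclins had 267 ± 77.3 against 218 ± 37.5 CPM (Ccnd2) and 48.1 ± 5.60 against 42.8 ± 0.622 CPM (Ccnd3, no overlap). For Ccnd3, knockout replicate 3 (44.2 CPM) was close to wild-type replicate 2 (43.5 CPM). E2f1, an activator, had 15.4 ± 1.81 against 14.2 ± 0.494 CPM.

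Of the 10 inhibitors and pocket proteins 6 were above 0, with a median of 0.06, and none held a seed match of 7 or 8 bases. Rbl1, the pocket protein p107, had 47.1 ± 5.71 against 39.7 ± 4.15 CPM (log2 fold change 0.25 ± 0.13, adjusted p = 0.801, edgeR). Cdkn1a, the p53 target and kinase inhibitor p21, had 126 ± 21.8 against 151 ± 22.3 CPM. Cdkn2b, the inhibitor p15, had 55.0 ± 12.7 against 65.6 ± 6.91 CPM and Cdkn1c, the inhibitor p57, 86.0 ± 55.9 against 54.7 ± 4.72 CPM. The groups overlapped for all 10.

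Of the 11 partners of E2F and MYC and genes of the MAX network, 5 were above 0, with a median of -0.02. Tfdp1, the dimer partner of E2Fs, had 111 ± 12.9 against 93.2 ± 4.31 CPM (0.25 ± 0.12, adjusted p = 0.793, edgeR) without overlap, and it carries a 7mer-A1. Mga, a MAX partner, had 66.1 ± 8.83 against 54.8 ± 6.38 CPM. Mxd4, a MAX partner that opposes MYC and holds an 8mer, had 69.0 ± 4.55 against 76.1 ± 2.1 CPM, and Zbtb17, the MYC partner MIZ1, 23.2 ± 0.321 against 25.4 ± 0.807 CPM, both lower without overlap. Of the 10 genes for turnover of G1 regulators 7 were above 0, with a median of 0.08. Skp2, the ubiquitin ligase subunit that recognises p27, had 18.6 ± 3.24 against 14.6 ± 1.16 CPM (0.34 ± 0.17, adjusted p = 0.793, edgeR). Cul1 (122 ± 6.64 against 112 ± 5.49 CPM), Gsk3b (140.1 ± 7.24 against 131 ± 8.13 CPM) and Fbxo4 (27.3 ± 4.01 against 29.6 ± 3.31 CPM) came next by p.

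Downstream of the 9 genes, 18 of 20 S phase genes regulated by E2Fs were above 0, with a median log2 fold change of 0.19, and 0 passed. Their summed level was 1465, 1133 and 1255 CPM in knockout and 1219, 1070 and 1111 CPM in wild-type libraries, with overlap. Cdc45, a part of the replicative helicase, had 30.2 ± 8.85 against 19.2 ± 4.97 CPM (0.66 ± 0.27, adjusted p = 0.793, edgeR), with overlap. Mybl2, a transcription factor of cycling cells, was higher without overlap (34.05 ± 3.94 against 28.2 ± 1.79 CPM). So was Rrm2, a ribonucleotide reductase subunit (73.7 ± 13.5 against 59.3 ± 5.30 CPM). For Rrm2, knockout replicate 2 (65.1 CPM) was close to wild-type replicate 3 (64.3 CPM). Mcm5, a helicase subunit with an 8mer, had 92.0 ± 15.3 against 75.8 ± 6.41 CPM. Of 14 growth genes regulated by MYC 12 were above 0, with a median of 0.09. Their summed level was 4267, 3956 and 3631 CPM in knockout and 3469, 3599 and 3887 CPM in wild-type libraries, also with overlap. Srm, spermidine synthase, had 39.6 ± 9.16 against 30.7 ± 1.31 CPM (0.37 ± 0.17, adjusted p = 0.793, edgeR) without overlap. Cad (79.7 ± 8.29 against 69.2 ± 6.94 CPM), Rrs1 (50.9 ± 12.2 against 43.1 ± 5.14 CPM) and Nolc1 (96.3 ± 16.9 against 85.2 ± 3.95 CPM) overlapped between the groups.

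**Figure D5:**
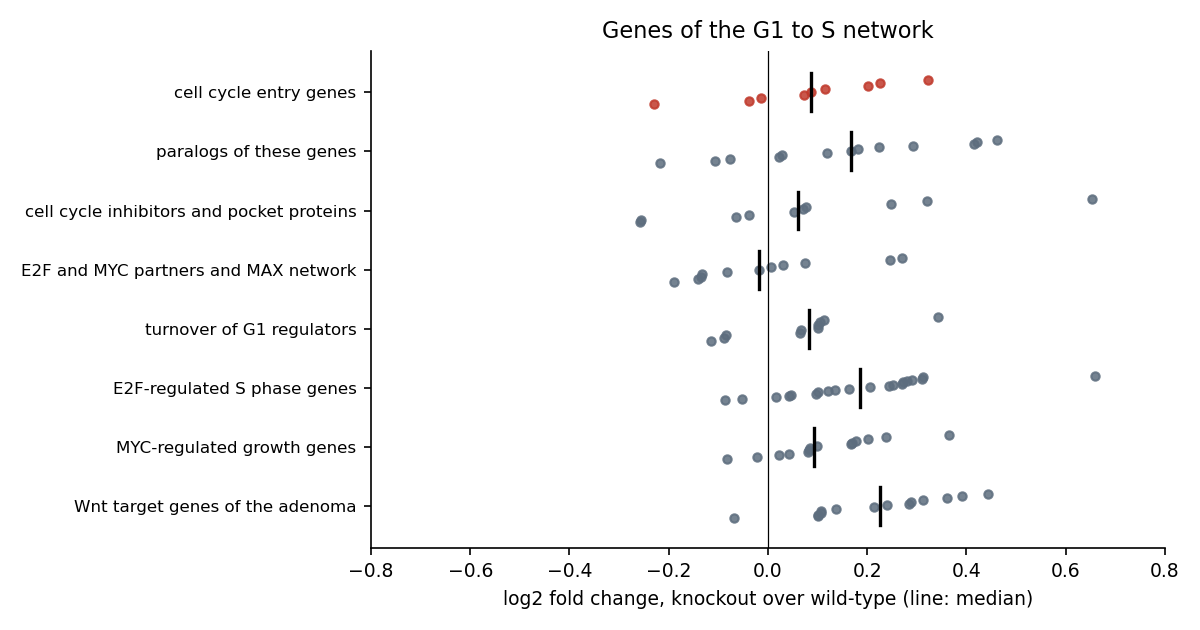
Log2 fold change of each gene of the 9 cell cycle entry genes and of 7 lists (G1 to S network, MYC-regulated growth genes and Wnt targets), knockout over wild-type (points, with vertical lines as medians). The medians lie between -0.02 and 0.23, and no point passed at an adjusted p of 0.05.

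The Wnt target list, which includes the feedback gene Axin2 and the stem cell receptor Lgr5, had 13 of 14 genes above 0 with a median of 0.23 and the lowest adjusted p at 0.830 (Axin2, 188 ± 61.8 against 151 ± 37.8 CPM, edgeR). Lef1 had 16.5 ± 9.38 against 12.6 ± 3.93 CPM, Ephb3 154 ± 67.2 against 126 ± 33.0 CPM and Sp5 80.3 ± 29.6 against 69.3 ± 5.74 CPM. Its summed level was 2554, 1069 and 2712 CPM in knockout and 2219, 1522 and 1719 CPM in wild-type libraries. Knockout replicate 2, the lowest of the 6 for this list, was also the lowest for Cdk4, Myc and Mycn. For E2f5 the 3 knockout libraries (18.93, 18.92 and 18.96 CPM) differed by less than counting error, so none of them stood out. Knockout replicate 1 was the highest for 5 of the 9 genes. By Xist and Y-linked counts, knockout replicate 2 (56 and 5813) and wild-type replicate 3 (125 and 5719) were male and the other 4 libraries female. Knockout replicate 2 also had the highest mitochondrial share of counts, 4.18%, followed by wild-type replicate 2 with 4.005%. With sex as a term in the fit the log2 fold changes were 0.32 for Ccnd1, 0.04 for Cdk4, -0.23 for E2f5, -0.04 for Myc and 0.04 for Mycn, and 0 of the 9 genes passed. On the first principal component of all genes (40.8% of the variance) knockout replicates 1 and 3 stood apart from the other 4 libraries. The part of the mitochondrial share and of this separation in the results was not tested. Without knockout replicate 1 or 3 the log2 fold changes of Ccnd1 were 0.23 and 0.32.

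No marker gene of 6 cell type lists passed at an adjusted p of 0.05 (edgeR), and the summed levels of 3 lists differed without overlap between the groups. The 8 smooth muscle markers summed to 565 to 673 CPM in knockout and 227 to 507 CPM in wild-type libraries, and the 8 endothelial markers to 333 to 464 and 241 to 315 CPM. Leukocyte markers (14 listed, 13 tested, 9 of the 13 lower) summed to 378 to 899 CPM in knockout and 1032 to 1473 CPM in wild-type libraries. These 3 sums did not overlap between the groups. Fibroblast markers (10 genes, 9 higher) summed to 840 to 2803 and 517 to 1427 CPM, epithelial markers (10 genes, 9 lower) to 12134 to 15611 and 13442 to 17837 CPM, and enteric nerve and glia markers (8 genes, 3 higher) to 27.8 to 41.1 and 31.4 to 42.8 CPM, with overlap. No marker was at 0 in all libraries. In bulk tumors fewer cells of a type and less RNA per cell cannot be told apart, and the part of these markers in the values of Ccnd1, E2f5 and the other genes was not tested.

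Among 14538 other genes with a mean of at least 1 CPM, those whose log2 CPM followed Ccnd1 most closely over the 6 libraries were Timeless, a replication fork protein gene (Pearson r = 0.998, Spearman rho = 0.943), Hmmr, a mitotic spindle gene (r = 0.993, rho = 0.943), and Pou4f1, a transcription factor gene (r = 0.993, rho = 0.943). Over these 6 libraries 84 genes had an r above 0.95 with Ccnd1. Among the cell cycle entry genes this count ran from 36 (Ccne2) to 209 (Cdc25a), so close followers were not particular to Ccnd1. The values are a description with no test.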

How the data were processed

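RNA of 6 adenoma libraries (3 mice per genotype) was sequenced. The authors deposited raw read counts, whole numbers for each Ensembl gene. Per the submitters' processing notes, TopHat2 2.1.0, HTSeq 0.6.1 and mm10 were used. No source used here gives the strand setting or the annotation release. Symbols matched 45143 of 46078 identifiers.

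Counts were filtered with filterByExpr (17254 genes tested), scaled by TMM and compared with edgeR 4.0.16 (R 4.3.3), quasi-likelihood F-test with robust fitting, and Benjamini-Hochberg adjustment over all genes. SE is the log2 fold change over the square root of F, and intervals use the fitted degrees of freedom. DESeq2 1.42.0, limma-voom (limma 3.58.1), other scalings, filters, a replicate block, a sex term and leaving out each mouse were alternatives. Exon lengths, 3′ UTRs and overlaps came from GENCODE M21. BLAST 2.17.0 against the GENCODE M21 transcripts found no copy of the 9 transcripts outside their own locus (95% identity over at least 300 bases). Sequence outside annotated transcripts was not searched. Exact tests used scipy 1.17.1.

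All 9 genes were named. Of each network list, the genes past the threshold or else the 4 with the smallest p were named, with 5 fixed paralogs. The genes and lists were chosen with earlier results of these data known. Counting errors cover counting alone, because PCR copies were not marked by molecular identifiers.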

Additional observations from a re-analysis of the deposited data

How the results depend on the processing

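In the 15 alternatives run, 0 of the 9 genes passed in any, and Ccnd1, Ccne2, Cdk6, E2f3 (above 0) and E2f5 (below 0) kept their direction in all 15. The lowest adjusted p of a member was 0.200 (Ccnd1 without knockout replicate 2). Ccnd1 had an unadjusted p of 0.05 or more with library size alone, with at least 1 CPM in 3 libraries and when any of 4 mice was left out (knockout 1 and 3, wild-type 2 and 3). With library size alone Cdc25a and Myc changed sign, to 0.042 and 0.045, and the median of all genes was 0.08. Leaving out single mice gave log2 fold changes from -0.16 to 0.051 for Cdc25a, -0.19 to 0.26 for Cdk4, -0.27 to 0.11 for Myc, -0.13 to 0.36 for Mycn, 0.23 to 0.40 for Ccnd1, 0.13 to 0.33 for Ccne2, 0.061 to 0.32 for Cdk6, 0.022 to 0.23 for E2f3 and -0.31 to -0.17 for E2f5. The median of the 9 genes lay between 0.03 and 0.26 without single mice. Of all genes, 16 passed in the edgeR fit, 110 with DESeq2, and between 9 and 41 without single mice (9, 41 and 10 for knockout mice 1, 2 and 3, and 29 for wild-type mouse 3); the cause was not tested. With a replicate block 14 genes passed, all of them among the 16, and none of the 9 members. The deviations of same-numbered libraries correlated at 0.22, 0.27 and 0.08, and those of different-numbered libraries at -0.30 to 0.18. For each wild-type library the same-numbered knockout library gave the highest value. Read from the knockout side this did not hold for replicate 3. It correlated at 0.18 with wild-type replicate 1 and at 0.08 with wild-type replicate 3. The labels state no pairs, so the main fit used none, and whether the numbers mark something shared was not tested. Counting 8mers alone left 5 genes with a match, adding 6mers gave 8, and the union of all annotated 3′ UTRs gave 7. Counting error was largest for Mycn and Ccne2 among the 9 genes (up to 6.67% and 5.76% in a library). It was below the spread between libraries of a group, 27.7% to 35.6% for Mycn and 10.1% to 13.4% for Ccne2.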
